A study of Mus musculus with 14 samples.

Results

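Circadian clock genes were followed in the liver of female mice at 14 months of age, in tissue without tumour. The 10 genes chosen by name were Arntl (also called Bmal1), Clock, Npas2, Per1, Per2, Per3, Cry1, Nr1d1, Nr1d2 and Dbp, and 9 of them could be read among the 19938 genes tested. Npas2 was not analysed here, since the array annotation used gives it no probe of its own. There were 14 arrays: 3 from wild type mice, for which the labels give the strain C57BL/6, 5 from Mdr2-KO mice, which lack Mdr2, and 6 from Mdr2-KO/IL6-KO mice, which lack Mdr2 and IL-6. Abcb4, of which Mdr2 is an older name, encodes the transporter that moves phosphatidylcholine into bile, and IL-6 is a cytokine to which hepatocytes respond with acute phase proteins. The labels give no strain for the knockouts and leave unsaid whether arrays stand for separate mice, so p-values here reflect array-to-array spread alone, which may be technical. They describe a fixed light-dark cycle but give no hour of tissue collection, so the part of collection time in any difference between clock genes was not tested.

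The clock of liver cells is a feedback loop of transcription. The protein of Arntl pairs with that of Clock or Npas2 and switches on genes that carry an E-box, among them the Per, Cry and Nr1d genes and Dbp. PER and CRY proteins then hold back this activator, while the REV-ERB proteins, made from Nr1d1 and Nr1d2, repress Arntl and Clock through ROR elements. Dbp and its relatives Tef and Hlf pass the rhythm on by binding D-boxes, which the repressor made from Nfil3 also binds. In the liver of healthy mice Arntl peaks near the end of the night, when Dbp and Per3 are low, and is low when they are high.

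The stretches of the clock genes' promoter windows that hold an E-box, E'-box, D-box or ROR element are shown because these are the motifs by which the loop is described. They are RefSeq sequences on GRCm38.p6, found for 9 of the 10 genes in windows of 250 bases before to 50 bases after 13 start sites, and capitals mark the motif. Per2 had no window among the sequences used, so its promoter was not searched.

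Per3, chr4:151044801-151044885, minus strand, with 2 D-boxes: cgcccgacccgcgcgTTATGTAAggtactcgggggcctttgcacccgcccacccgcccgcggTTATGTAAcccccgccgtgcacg
Per1, chr11:69098756-69098815, plus strand, with an E-box: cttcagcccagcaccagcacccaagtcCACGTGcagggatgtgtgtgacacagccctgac
Cry1, chr10:85185094-85185148, minus strand, with an E'-box and an E-box: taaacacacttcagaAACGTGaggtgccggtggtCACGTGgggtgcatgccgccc
Nr1d1, chr11:98775378-98775427, minus strand, with an E'-box: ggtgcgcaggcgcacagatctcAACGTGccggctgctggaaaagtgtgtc
Arntl, chr7:113207528-113207557, plus strand, with a ROR element: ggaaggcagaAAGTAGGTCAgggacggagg

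Both strands were searched for the E-box (CACGTG), the E'-box (CACGTT) and the D-box (TTANGTAA, the N being a pyrimidine). The ROR element was searched as GGTCA preceded by A or T, then A, any base, T, and A or G. Its bare core (AGGTCA), which the ROR element of Arntl contains, was searched as well. Of 32851 promoter windows of the same length, 7.15% hold the E-box, 4.68% the E'-box, 1.06% the D-box, 0.688% the ROR element and 16.3% the bare core. The D-boxes of Per3 begin at positions -205 and -158 from its start site, the E-box of Per1 at -166, and the ROR element of Arntl begins at position 28 from the second of its start sites. Of the motifs searched, Clock and Nr1d2 hold only the bare core, and Dbp and Npas2 hold none of these letters in their windows. A match describes the sequence and is not evidence of binding.

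Values are on the log2 scale as deposited, and each difference stands beside its standard error (SE). Means are given ± SD over the arrays of a group (wild type n = 3, Mdr2-KO n = 5, Mdr2-KO/IL6-KO n = 6). A gene is called changed where limma, fitted over all genes, gave a Benjamini-Hochberg adjusted p under 0.05. Medians of the arrays over the genes tested ran from 6.50 to 6.61. They were 6.53 to 6.56 in wild type, 6.50 to 6.56 in Mdr2-KO and 6.57 to 6.61 in Mdr2-KO/IL6-KO. Every Mdr2-KO/IL6-KO array thus had a higher median than any array of the other groups. Precision is limited throughout by how few arrays there are. Abcb4, the targeted gene, read 10.36 ± 0.03 in wild type and was lower in Mdr2-KO, at 9.01 ± 0.19, as in Mdr2-KO/IL6-KO, at 9.05 ± 0.20, with every knockout array below every wild-type array. Il6 read 3.22, 3.07 and 3.48 in these groups. These values lie under 5.48, taken as the background of the array because 95% of the 1027 olfactory receptor genes have means below it, so the loss of Il6 could not be read. All 9 clock genes had group means above this background.

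**Figure D1:**
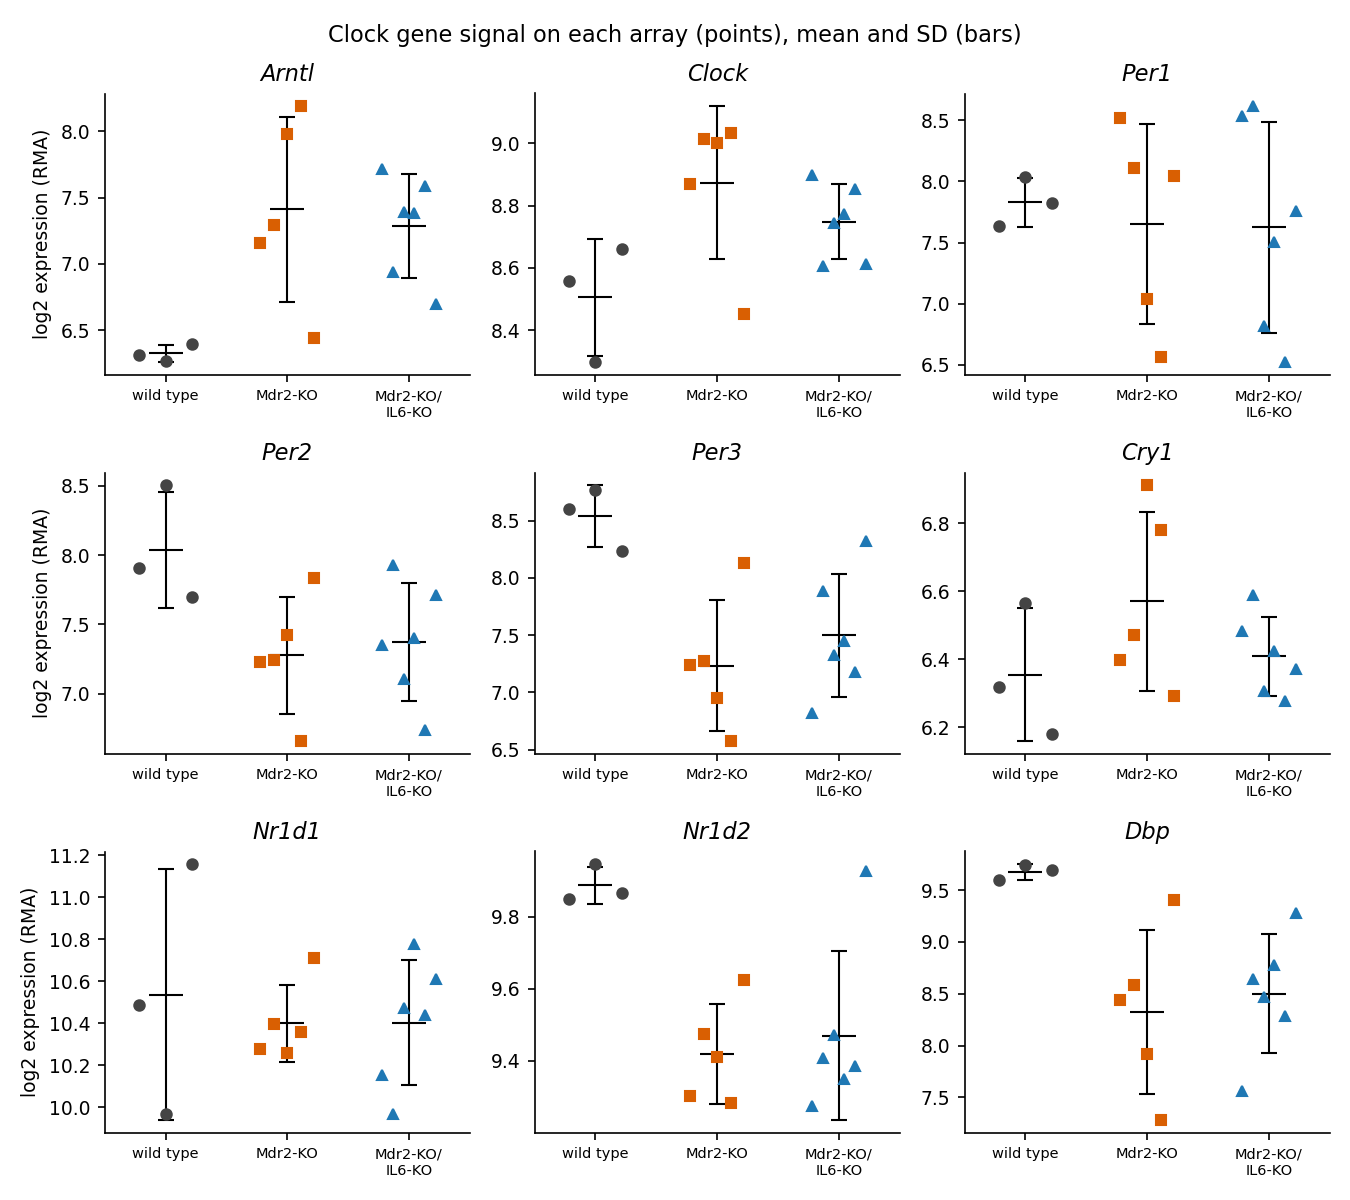
Log2 expression of the 9 measured clock genes (vertical axes, each with its own range that does not start at 0) on each of 14 arrays, grouped by genotype; points are arrays, and bars show the mean and SD of each group. Wild-type arrays lie close together for Arntl, Nr1d2 and Dbp, and the knockout arrays spread over a range of up to 2.13 log2 units for Dbp.

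Arntl, the core activator, read 6.31, 6.27 and 6.39 in the wild-type arrays. In Mdr2-KO it read 7.16, 7.29, 7.98, 8.19 and 6.44 in arrays 1 to 5, and in Mdr2-KO/IL6-KO between 6.70 and 7.72 with a median of 7.39. All 11 knockout arrays were above all wild-type arrays, Mdr2-KO array 5 by the least. The mean rose from 6.32 ± 0.06 to 7.41 ± 0.70 in Mdr2-KO, 2.13-fold (1.09, SE 0.31, limma adjusted p = 0.0229). In Mdr2-KO/IL6-KO the mean was 7.29 ± 0.39, 1.95-fold above wild type (0.96, SE 0.30, limma adjusted p = 0.0477).

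Clock, the partner of Arntl, read 8.56, 8.30 and 8.66 in wild type and 8.87, 9.01, 9.0, 9.03 and 8.45 in Mdr2-KO. The 6 Mdr2-KO/IL6-KO values lay between 8.61 and 8.90 with a median of 8.76. Array 5 of Mdr2-KO was the only one of its group within the wild-type range, and 4 of 6 Mdr2-KO/IL6-KO arrays were above that range. Clock rose 1.29-fold in Mdr2-KO (0.37, SE 0.12, limma adjusted p = 0.0474). This call was lost in 4 of 8 processing alternatives: the limma adjusted p was 0.0712 with quantile normalization, 0.0636 over all probes, 0.0595 with array weights and 0.0973 with only the 2 groups compared. In Mdr2-KO/IL6-KO the difference from wild type was 0.24 (SE 0.12) and did not pass (limma adjusted p = 0.226).

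Among the genes of the repressor arm, Per3 differed most from wild type. It read 8.61, 8.77 and 8.24 in wild type and 7.24, 7.27, 6.95, 6.58 and 8.13 in Mdr2-KO. Its Mdr2-KO/IL6-KO values lay between 6.82 and 8.32 with a median of 7.39. Every Mdr2-KO array was below every wild-type array, and in Mdr2-KO/IL6-KO array 6 alone, at 8.32, reached the wild-type range. Per3 fell from 8.54 ± 0.27 to 7.23 ± 0.57 in Mdr2-KO (-1.30, SE 0.32, limma adjusted p = 0.0109), a 2.47-fold difference. It was also lower in Mdr2-KO/IL6-KO, at 7.50 ± 0.53, a 2.06-fold difference (-1.04, SE 0.31, limma adjusted p = 0.0390).

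Per2, which encodes a central inhibitor of the ARNTL and CLOCK pair, read 7.90, 8.50 and 7.70 in wild type and 7.23, 7.24, 7.43, 6.66 and 7.83 in Mdr2-KO. In Mdr2-KO/IL6-KO it lay between 6.74 and 7.93 with a median of 7.38. In each knockout group 4 arrays were below the wild-type range and none above it. The differences of -0.76 (SE 0.26, limma adjusted p = 0.0530) and -0.66 (SE 0.26, limma adjusted p = 0.110) did not pass. The first passed under quantile normalization (limma adjusted p = 0.0462) and with the genes of lowest mean left out, which leaves 13292 genes (limma adjusted p = 0.0481). It also passed without array 5 of Mdr2-KO (limma adjusted p = 0.0274) or without array 2 (0.0431) or 5 (0.0378) of Mdr2-KO/IL6-KO.

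Per1, the Per gene that also answers acutely to glucocorticoids and other signals, had the largest SD of the 9 after subtracting group means (0.77), although Dbp had the wider range over all arrays. It read 7.63, 8.04 and 7.82 in wild type and 8.52, 8.11, 7.04, 6.56 and 8.04 in Mdr2-KO. The 6 Mdr2-KO/IL6-KO values lay between 6.52 and 8.61 with a median of 7.63. Knockout arrays lay on either side of wild type, 3 above and 2 below its range in Mdr2-KO and 2 above and 3 below in Mdr2-KO/IL6-KO. The mean differences were -0.17 (SE 0.47, limma adjusted p = 0.810) and -0.21 (SE 0.46, limma adjusted p = 0.842). Their 95% intervals ran from -1.18 to 0.83 and from -1.18 to 0.77, so sizeable changes in either direction were not excluded.

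Cry1, which encodes the strongest repressor of the loop, read 6.32, 6.57 and 6.18 in wild type and 6.40, 6.47, 6.91, 6.78 and 6.29 in Mdr2-KO. Its Mdr2-KO/IL6-KO values lay between 6.28 and 6.59 with a median of 6.40. The groups overlapped, with 2 Mdr2-KO arrays and 1 Mdr2-KO/IL6-KO array above the wild-type range. The differences from wild type were 0.22 (SE 0.13, 95% interval -0.06 to 0.49, limma adjusted p = 0.234) and 0.05 (SE 0.13, 95% interval -0.21 to 0.32, limma adjusted p = 0.849).

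The 2 REV-ERB genes differed in pattern. Nr1d1 read 10.48, 9.97 and 11.16 in wild type, a spread of 1.19, and 10.28, 10.39, 10.26, 10.36 and 10.71 in Mdr2-KO. In Mdr2-KO/IL6-KO it lay between 9.97 and 10.78 with a median of 10.45, so that all but 1 of the 11 knockout arrays fell inside the wild-type range. Its differences were -0.14 (SE 0.22, limma adjusted p = 0.669) and -0.13 (SE 0.21, limma adjusted p = 0.762). Both turned to 0.17 and 0.18 without wild-type array 3, where Nr1d1 was highest.

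Nr1d2 was steady in wild type, at 9.85, 9.95 and 9.87, and read 9.30, 9.47, 9.41, 9.28 and 9.62 in Mdr2-KO. The 6 Mdr2-KO/IL6-KO values lay between 9.27 and 9.93 with a median of 9.40. Every Mdr2-KO array was below wild type, and so were 5 of 6 Mdr2-KO/IL6-KO arrays. Nr1d2 fell by 0.47 on the log2 scale in Mdr2-KO (SE 0.12, limma adjusted p = 0.0142), 1.38-fold. Against the same wild-type arrays it fell by 0.42 on the log2 scale in Mdr2-KO/IL6-KO (SE 0.12, limma adjusted p = 0.0294), 1.34-fold.

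Dbp, the output factor, read 9.59, 9.74 and 9.69 in wild type and 8.44, 8.58, 7.91, 7.28 and 9.41 in Mdr2-KO. Its Mdr2-KO/IL6-KO values lay between 7.56 and 9.28 with a median of 8.55. Every knockout array was below every wild-type array. Dbp fell from 9.67 ± 0.07 to 8.32 ± 0.79 in Mdr2-KO (-1.35, SE 0.38, limma adjusted p = 0.0219), 2.55-fold. The Mdr2-KO/IL6-KO mean was 8.50 ± 0.57, 2.25-fold below wild type (-1.17, SE 0.37, limma adjusted p = 0.0495).

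Counted together against wild type, 5 of the 9 clock genes changed in Mdr2-KO, Arntl and Clock upward and Per3, Nr1d2 and Dbp downward, where 21.0% of all genes tested were called (8.89% higher and 12.1% lower). In Mdr2-KO/IL6-KO 4 of the 9 changed, Arntl upward and Per3, Nr1d2 and Dbp downward, where 12.3% of all genes were called (6.96% higher and 5.33% lower). The groups did not overlap for 4 of the 9 genes in Mdr2-KO, against 23.5% of all genes (10.3% higher and 13.2% lower), and for 2 of the 9 in Mdr2-KO/IL6-KO, against 15.1% of all genes (8.57% higher and 6.56% lower). The median difference of the 9 genes was -0.17 for Mdr2-KO and -0.21 for the double knockout Mdr2-KO/IL6-KO, beside -0.07 and -0.02 over all genes. Both comparisons use the same 3 wild-type arrays, so they are not independent of each other.

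Most of these calls depended on single arrays. In Mdr2-KO the calls of Per3 and Nr1d2 remained without any 1 of the 14 arrays. That of Arntl ended without wild-type array 1 (limma adjusted p = 0.0618), 2 (0.0507) or 3 (0.0667), and that of Dbp without wild-type array 1 (0.0523) or 3 (0.0741). Clock was called in only 1 of 14 such fits, without Mdr2-KO array 5 (limma adjusted p = 0.00465), and without any other array it lay between 0.0506 and 0.164. In Mdr2-KO/IL6-KO each of the 4 calls ended without any wild-type array, with limma adjusted p between 0.0592 (Per3, without array 3) and 0.130 (Per3, without array 2). They also ended without Mdr2-KO/IL6-KO array 1, with limma adjusted p of 0.0858 for Arntl, 0.0678 for Per3, 0.0550 for Nr1d2 and 0.0813 for Dbp. Without Mdr2-KO/IL6-KO array 4 all 4 ended too, without array 3 or 5 of that group Arntl, Per3 and Dbp ended, and without array 2 Nr1d2 and Dbp. Removal of Mdr2-KO arrays, which lend only their spread, ended Arntl and Dbp (array 1), Arntl, Per3 and Dbp (array 2) and Dbp (array 3). Among the processing alternatives, testing all probes ended all 4 of these calls (limma adjusted p from 0.0502 for Nr1d2 to 0.0831 for Dbp), and trended robust eBayes ended those of Arntl (0.0877), Per3 (0.0751) and Dbp (0.0983). That of Arntl also ended with centred medians (0.0588), that of Dbp with quantile normalization (0.0539) and that of Nr1d2 with only the 2 groups compared (0.0543).

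**Figure D2:**
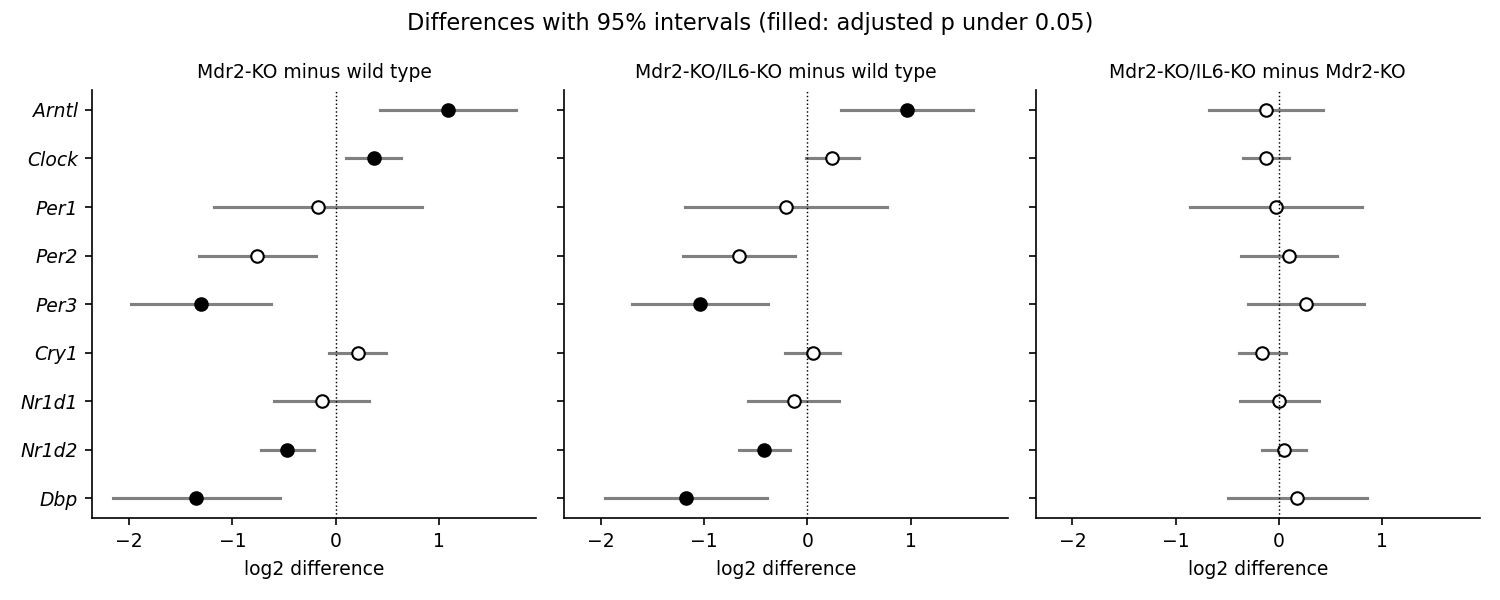
Difference between group means (horizontal axis, log2 units) for each clock gene in the 3 comparisons, with 95% intervals as lines and filled points where the limma adjusted p is under 0.05. Of the 9 genes 5 are filled for Mdr2-KO minus wild type, 4 for Mdr2-KO/IL6-KO minus wild type and none between the knockouts.

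The comparison of the knockouts asks what loss of IL-6 adds when Mdr2 is missing. None of the 9 clock genes was called by limma, and 0 had an unadjusted p under 0.05, where 8.76% of all genes were called (5.04% higher and 3.72% lower in Mdr2-KO/IL6-KO). The knockouts overlapped for all 9 genes, while they did not for 7.34% of all genes (4.40% higher and 2.94% lower). The largest difference was that of Per3, 0.26 higher in Mdr2-KO/IL6-KO (SE 0.26, limma adjusted p = 0.523). Its 95% interval ran from -0.30 to 0.83. That of Arntl was -0.13 (95% interval -0.67 to 0.42), that of Dbp 0.18 (95% interval -0.50 to 0.85) and that of Clock -0.12 (95% interval -0.34 to 0.09). The widest interval was that of Per1, from -0.87 to 0.80, and that of Per2 ran from -0.37 to 0.56. The intervals therefore hold differences of over 0.5 log2 units in both directions for Per1 and in 1 direction for Arntl, Per2, Per3 and Dbp.

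Several of the genes placed the arrays in nearly the same or the reverse order. Ordered by Arntl, the lowest 5 arrays were wild type 2, 1 and 3, then array 5 of Mdr2-KO at 6.44 and array 6 of Mdr2-KO/IL6-KO at 6.70. The same 5 arrays held the 5 highest values of Dbp, Per3 and Nr1d2, and 4 of them the 5 highest of Per2 and of Nr1d1 and the 5 lowest of Clock. For Cry1 3 of them were among the 5 lowest, and for Per1 only 1 was among the 5 highest. All 3 wild-type arrays are among these 5, so such overlap partly repeats the group differences, and it was not tested. At the other end, Mdr2-KO array 4 had the highest Arntl (8.19) and the lowest Dbp (7.28), Per3 (6.58) and Per2 (6.66).

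**Figure D3:**
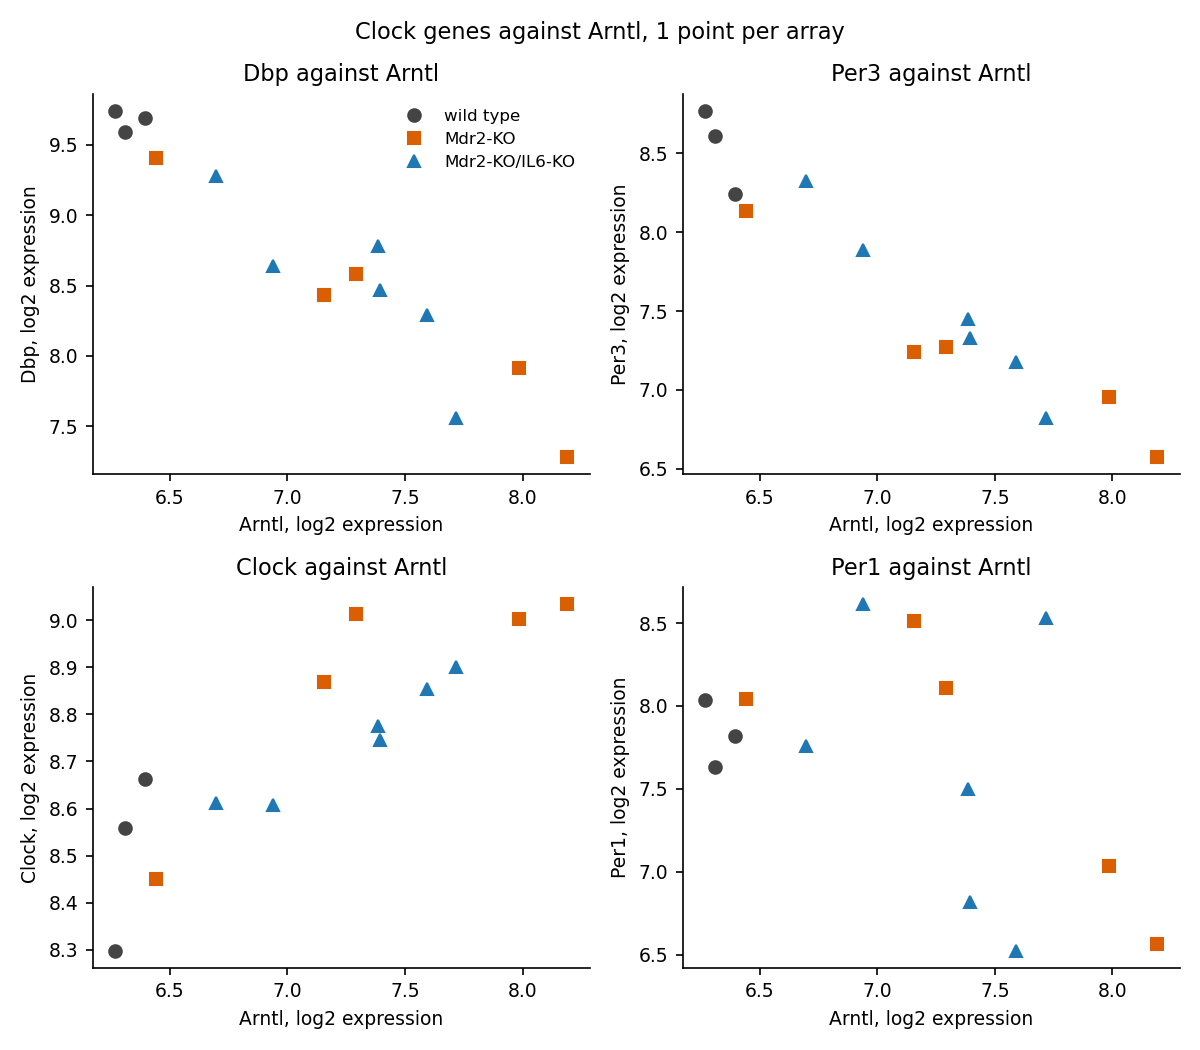
Log2 expression of Dbp, Per3, Clock and Per1 (vertical axes) against Arntl (horizontal axes), 1 point per array, with shapes and colours for genotype. Across the 14 arrays Dbp and Per3 are lower and Clock higher where Arntl is higher, with Mdr2-KO array 5 (Arntl 6.44, Dbp 9.41) beside wild type, while Per1 has its highest values, 8.52 to 8.61, at Arntl levels between 6.94 and 7.72.

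Within Mdr2-KO/IL6-KO, the only group with 6 arrays, Arntl was correlated with each of the 8 other genes. With Per3 Pearson's r was -0.99 (exact permutation p = 0.00139, two-sided, the smallest that 6 arrays allow, and 0.0111 adjusted over the 8 relations). Spearman's rho was -1.0 (exact permutation p = 0.00278, adjusted 0.0222), and r was -0.96 without arrays 2 and 6, the farthest from the median of Arntl. With Clock r was 0.97 (exact permutation p = 0.00556, adjusted 0.0222), rho 0.89 (exact permutation p = 0.0333, adjusted 0.0889, which did not pass) and r 0.98 without those 2 arrays. Dbp, at r = -0.85 and rho = -0.94, did not pass after adjustment (exact permutation adjusted p = 0.0556 and 0.0667). Nr1d2, at r = -0.81 and rho = -0.71, did not pass either (exact permutation adjusted p = 0.0556 and 0.218). For Per2 r was -0.75 and rho -0.77 (exact permutation p = 0.0917 and 0.103, adjusted 0.147 and 0.206). Per1, Cry1 and Nr1d1 had r between -0.28 and -0.04 and rho between -0.31 and -0.20, with exact permutation adjusted p between 0.644 and 0.929. Without arrays 2 and 6 the r of Nr1d1 was -0.86, that of Per1 0.52 and that of Cry1 0.35. The r of Per2 was -0.12 over the 4 arrays left, so within this group its r depended on those 2 arrays. Over all 14 arrays, after subtracting group means, the r of Per2 was -0.68. Without arrays 2 and 6 the r of Dbp was -0.93 and that of Nr1d2 -0.70. Within Mdr2-KO (n = 5) r with Arntl was described but not tested. There it was 0.93 for Cry1, 0.87 for Clock, -0.97 for Per3 and -0.97 for Dbp. For Per1 it was -0.81, for Per2 -0.78, for Nr1d1 -0.75 and for Nr1d2 -0.73.

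**Figure D4:**
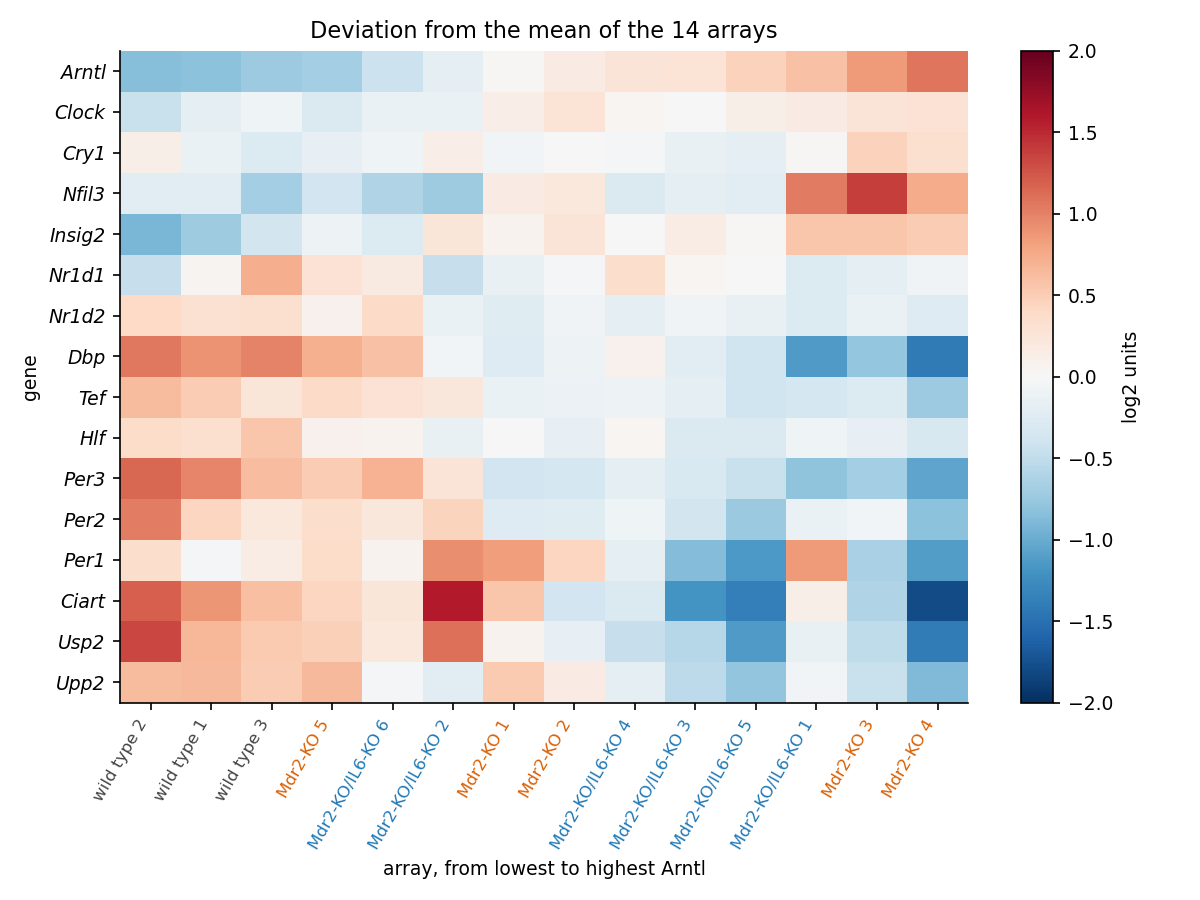
Deviation of each gene from its mean over the 14 arrays (colour, log2 units, limited to 2 in either direction) for the clock genes and 7 related genes, with arrays ordered from the lowest to the highest Arntl. Wild-type arrays stand at the low end together with array 5 of Mdr2-KO and array 6 of Mdr2-KO/IL6-KO, where Dbp, Tef, Per3 and Nr1d2 are high.

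Variation between arrays of 1 genotype was large for these genes. After subtracting group means, the SD of Per1 was 0.77, of Dbp 0.61, of Per3 0.51, of Arntl 0.50, of Per2 0.42 and of Nr1d1 0.34, beside a median of 0.126 over the 14162 genes with a mean above background. These values stood at the percentiles 99.7, 99.3, 98.9, 98.7, 97.8 and 96.0 of those genes. Cry1 (0.20), Clock (0.19) and Nr1d2 (0.18) stood at 83.9, 81.6 and 79.9. The spread was uneven between groups. For Arntl the SD was 0.06 among wild-type arrays, 0.70 among Mdr2-KO and 0.39 among Mdr2-KO/IL6-KO arrays, and for Dbp it was 0.07, 0.79 and 0.57. For Nr1d1 it was the other way round, at 0.60, 0.18 and 0.30. The differences in spread were not tested.

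The genes whose deviations from the group means most resembled those of Arntl over the 14 arrays were Clpx (r = 0.92), Leo1 (0.92), Slc30a10 (0.92), Tars (0.90) and Mical2 (0.89). Those most opposed to it were Per3 (r = -0.93), Tef (-0.93), Dbp (-0.92), Hook2 (-0.90), Myo5c (-0.89), Plekha7 (-0.89) and Prr3 (-0.89). For Dbp the most alike were Per3 (r = 0.92), Arhgef25 (0.88), Tef (0.88), Ngef (0.87), Myo5c (0.86) and Col8a1 (0.85). The most opposed to Dbp were Clpx (-0.95), Leo1 (-0.94), Arntl (-0.92), Rnf144a (-0.90), Denn2b (-0.88) and Slc16a1 (-0.87). These values describe the 14 arrays, which are shared by all genes compared, and carry no test. Clpx, a subunit of the mitochondrial Clp protease, read 8.91 ± 0.13 in wild type and rose to 9.64 ± 0.46 in Mdr2-KO (0.73, SE 0.23, limma adjusted p = 0.0377), and it read 9.39 ± 0.36 in Mdr2-KO/IL6-KO (0.48, SE 0.23, limma adjusted p = 0.196).

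Other regulators of the clock were read from a list of 22 genes, 20 of them measured. In Mdr2-KO 2 rose, 5 fell and 13 did not pass, 35.0% called beside 21.0% of all genes. In Mdr2-KO/IL6-KO 2 rose, 2 fell and 16 did not pass, 20.0% called beside 12.3%. The list medians were -0.09 and -0.01. Hlf, a D-box activator related to Dbp, fell from 8.49 ± 0.12 to 7.96 ± 0.16 in Mdr2-KO (-0.53, SE 0.10, limma adjusted p = 0.00306). In Mdr2-KO/IL6-KO it fell to 7.96 ± 0.15 (-0.53, SE 0.10, limma adjusted p = 0.00281). Tef, the other relative of Dbp, fell by 0.64 on the log2 scale in Mdr2-KO (SE 0.20, limma adjusted p = 0.0358), and in Mdr2-KO/IL6-KO its difference of -0.56 did not pass (SE 0.20, limma adjusted p = 0.0794). Its 5 highest arrays were the same 5 that held the lowest Arntl.

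Among enzymes that mark clock proteins, Csnk1e, a casein kinase that phosphorylates PER proteins, rose by 0.31 in Mdr2-KO (SE 0.10, limma adjusted p = 0.0361) and by 0.50 in Mdr2-KO/IL6-KO (SE 0.09, limma adjusted p = 0.00286). Its relative Csnk1d rose by 0.21 in Mdr2-KO/IL6-KO (SE 0.06, limma adjusted p = 0.0210). Fbxl21, an F-box protein that acts on CRY proteins, fell by 0.49 (SE 0.09, limma adjusted p = 0.00175) and 0.40 on the log2 scale (SE 0.08, limma adjusted p = 0.00614). Btrc, the F-box protein that targets PER proteins for degradation, fell by 0.37 in Mdr2-KO (SE 0.09, limma adjusted p = 0.0101). It was 0.25 higher in Mdr2-KO/IL6-KO than in Mdr2-KO (SE 0.07, limma adjusted p = 0.0483). Btrc was the only 1 of the 20 called between the knockouts, 5.0% beside 8.76% of all genes. The kinase gene Gsk3b rose by 0.26 in Mdr2-KO (SE 0.07, limma adjusted p = 0.0200).

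Some regulators had wide ranges and were singled out after their values were seen. Ciart, a repressor of the ARNTL and CLOCK pair, ranged from 7.57 to 8.16 in wild type and from 5.17 to 7.51 in Mdr2-KO, and its Mdr2-KO/IL6-KO values ran from 5.60 to 8.55. Its differences of -1.25 (SE 0.58, limma adjusted p = 0.126) and -1.04 (SE 0.56, limma adjusted p = 0.267) did not pass, although all 5 Mdr2-KO arrays lay below wild type. Usp2, a deubiquitinase with a strong rhythm in liver, differed by -1.14 (SE 0.43, limma adjusted p = 0.0689) and -1.0 (SE 0.42, limma adjusted p = 0.139). Nfil3, which opposes Dbp at D-boxes, ranged from 6.78 to 7.24 in wild type and from 7.08 to 8.84 in Mdr2-KO, and its Mdr2-KO/IL6-KO values ran from 6.74 to 8.49. Its highest values were in Mdr2-KO arrays 3 (8.84) and 4 (8.20) and Mdr2-KO/IL6-KO array 1 (8.49), the 3 arrays with the highest Arntl, and its differences of 0.80 (SE 0.37, limma adjusted p = 0.126) and 0.21 (SE 0.36, limma adjusted p = 0.776) did not pass.

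Genes that the clock drives in liver were read from a list of 25, of which 21 were measured. In Mdr2-KO 1 rose, 7 fell and 13 did not pass, and in Mdr2-KO/IL6-KO 1 rose, 8 fell and 12 did not pass, 38.1% and 42.9% called beside 21.0% and 12.3% of all genes. The list medians were -0.28 and -0.46. The 1 that rose was Insig2, a protein of the endoplasmic reticulum that holds back sterol synthesis and a known target of REV-ERB. It rose from 9.65 ± 0.27 to 10.57 ± 0.28 in Mdr2-KO (0.92, SE 0.18, limma adjusted p = 0.00282). In Mdr2-KO/IL6-KO it rose to 10.43 ± 0.28 (0.77, SE 0.17, limma adjusted p = 0.00812). Gys2, the liver glycogen synthase, fell from 11.11 ± 0.21 to 10.40 ± 0.11 (-0.72, SE 0.10, limma adjusted p = 0.000324) and to 10.39 ± 0.14 (-0.72, SE 0.10, limma adjusted p = 0.000276). Ppara, a nuclear receptor of fatty acid oxidation, fell by 0.82 (SE 0.08, limma adjusted p = 2.5e-05) and 0.79 on the log2 scale (SE 0.08, limma adjusted p = 2.98e-05), and Cyp2b10, a drug-metabolising cytochrome, fell by 1.81 (SE 0.29) and 1.89 (SE 0.28). Many genes of this list answer to other signals than the clock as well. None of the 21 was called between the knockouts by limma, where 8.76% of all genes were called. Of the 21, 2 had an unadjusted p under 0.05.

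Signals that can set liver clock genes from outside were read in 3 further lists. Of 10 glucocorticoid-responsive genes 1 fell in Mdr2-KO (the receptor gene Nr3c1, -0.32, SE 0.08, limma adjusted p = 0.00971) and 9 did not pass, 10% called beside 21.0% of all genes. In Mdr2-KO/IL6-KO 2 fell, Nr3c1 (-0.24) and Hsd11b1 (-0.45), the enzyme that regenerates active glucocorticoid, and 8 did not pass, 20.0% called beside 12.3%. The genes that did not pass lay in both directions. Dusp1 differed from wild type by 0.83 (SE 0.46) in Mdr2-KO and 1.13 (SE 0.45) in Mdr2-KO/IL6-KO, and Mt2 by -0.47 (SE 0.32) and -0.77 (SE 0.31). The list medians were 0.18 and -0.08. Hsd11b1 was also lower in Mdr2-KO/IL6-KO than in Mdr2-KO (-0.38, SE 0.09, limma adjusted p = 0.0253), the only 1 of the 10 called there, 10% beside 8.76%. Of 15 fasting and feeding genes 2 fell in Mdr2-KO, while 3 fell in Mdr2-KO/IL6-KO, led by Pnpla3 (-1.01 and -0.92), a lipid droplet protein, and Cpt1a (-0.34 and -0.37), which takes fatty acids into mitochondria. These shares, 13.3% and 20.0%, stand beside 21.0% and 12.3% of all genes. None of the 15 was called between the knockouts by limma, beside 8.76% of all genes, with 2 at an unadjusted p under 0.05.

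Of 8 temperature-responsive genes 1 rose and 1 fell in either knockout group against wild type, 25% called in each, beside 21.0% (Mdr2-KO) and 12.3% (Mdr2-KO/IL6-KO) of all genes. Rbm3, a cold-inducible RNA-binding protein, fell by 0.80 on the log2 scale in Mdr2-KO (SE 0.24, limma adjusted p = 0.0299), and the chaperone gene Hsp90aa1 rose by 0.71 (SE 0.15, limma adjusted p = 0.00440). In Mdr2-KO/IL6-KO the 2 called were other genes: Cirbp, a relative of Rbm3, rose by 0.54 (SE 0.16, limma adjusted p = 0.0395), and Hspd1, a mitochondrial chaperone, fell by 0.45 on the log2 scale (SE 0.08, limma adjusted p = 0.00222). Rbm3 differed from wild type there by -0.092 (SE 0.23, limma adjusted p = 0.863). Between the knockouts 4 of the 8 were called, beside 8.76% of all genes. Rbm3 (0.70, SE 0.20, limma adjusted p = 0.0408) and Cirbp (0.49, SE 0.14, limma adjusted p = 0.0408) were higher in Mdr2-KO/IL6-KO, and the heat shock genes Hsph1 (-0.77, SE 0.18, limma adjusted p = 0.0194) and Hspd1 (-0.28, SE 0.07, limma adjusted p = 0.0264) were lower. The medians of the 3 lists lay between -0.26 and 0.18 over the 3 comparisons, where those of all genes were -0.07, -0.02 and 0.06.

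**Figure D5:**
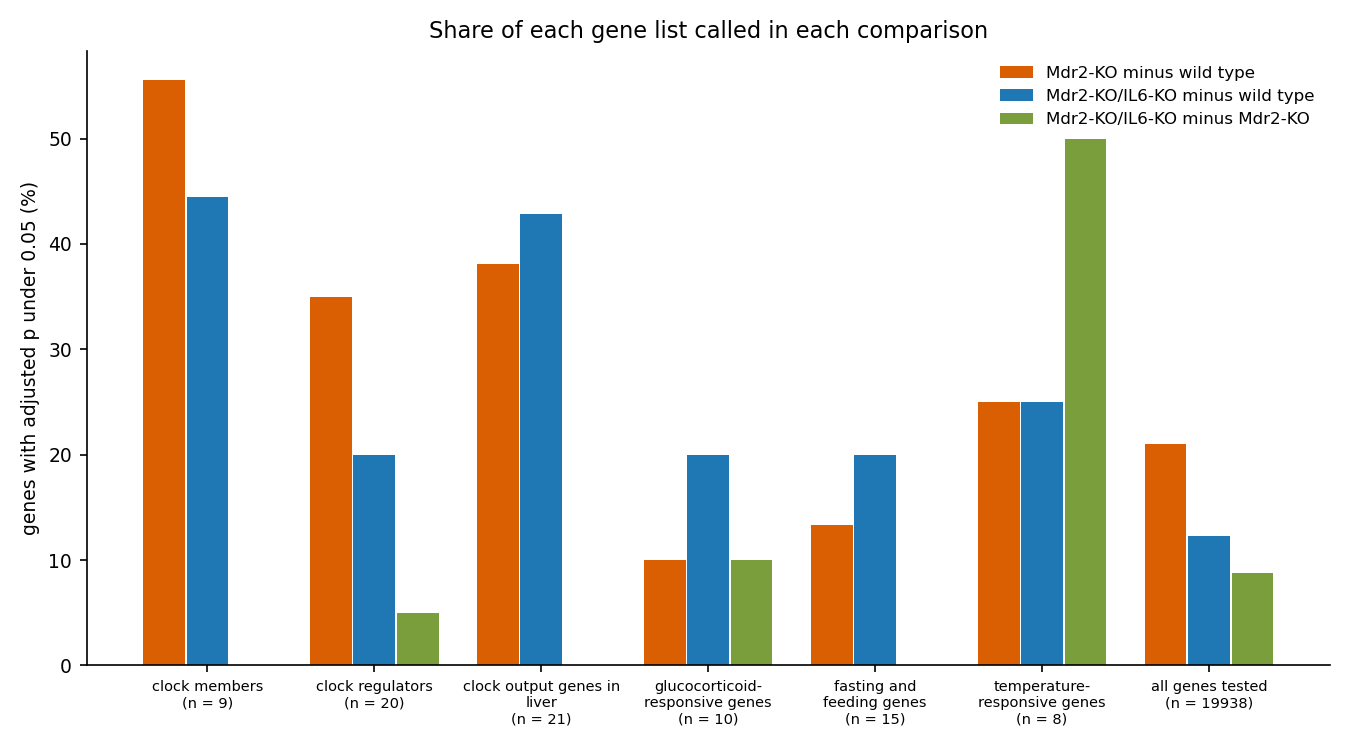
Percent of each gene list with a limma adjusted p under 0.05 (vertical axis, from 0) in the 3 comparisons (colours), with all genes tested at the right and the number of genes measured under each list. Clock members (5 and 4 of 9) and clock output genes (8 and 9 of 21) have the tallest bars in the comparisons with wild type, and temperature-responsive genes (4 of 8) between the knockouts.

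Cell composition was read from fixed markers in the same arrays. Of all genes tested, 8.89% were called higher and 12.1% lower in Mdr2-KO than in wild type. For Mdr2-KO/IL6-KO these shares were 6.96% and 5.33%, and the few markers of each type were not tested as sets. All 5 measured hepatocyte markers were well above background, and none was called in any comparison by limma. The summed level of these markers lay between 14.98 and 15.18 (log2 of the sum) over all arrays. Of 5 measured bile duct markers 2 were higher in Mdr2-KO (Krt19 and Cd24a) and 3 in Mdr2-KO/IL6-KO (with Sox9), and their summed level lay between 9.09 and 9.74 in wild type, above which every Mdr2-KO array (10.18 to 10.92) and every Mdr2-KO/IL6-KO array (10.15 to 11.30) lay. Of 5 stellate cell markers 2 (Col1a1 and Pdgfrb) were higher in each knockout group, with summed levels of 10.01 to 10.24 in wild type and 9.83 to 10.57 in Mdr2-KO, against 10.18 to 10.61 in Mdr2-KO/IL6-KO. Of 4 lymphocyte markers 2 (Cd3e and Nkg7) were lower in Mdr2-KO/IL6-KO, with summed levels of 8.83 to 9.83 in wild type and 8.40 to 8.89 in Mdr2-KO, against 8.20 to 8.85 in Mdr2-KO/IL6-KO. No macrophage or endothelial marker was called against wild type. The summed level of the 4 endothelial markers was nonetheless lower in every Mdr2-KO array (10.17 to 10.32) than in every wild-type array (10.36 to 10.60), and ran from 10.04 to 10.72 in Mdr2-KO/IL6-KO. That of the 5 macrophage markers overlapped between all groups. The macrophage gene Marco was higher in Mdr2-KO/IL6-KO than in Mdr2-KO, 1 of the 5, beside 5.04% of all genes called higher there. No marker had a mean under the background, and the part of cell composition in the clock gene differences was not tested. In bulk tissue fewer cells of a type and less RNA per cell cannot be told apart.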

How the data were processed

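Liver RNA was measured on 14 Affymetrix mouse gene arrays. The deposited table holds log2 values that, per the submitters' processing notes, the authors made with Partek and RMA; versions, build and filters were not given in the sources used here. RMA corrects background, equalises the arrays at probe level and summarises probes, which can shrink real differences. Values lie between 1.47 and 13.6, and no 2 arrays shared more than 0.0619% of their values. Of 35557 probes, 21789 name 1 gene, 1621 several and 12147 none; 21698 were matched by gene identifier to GRCm38.p6 names. Each gene was read from its single-gene probe of highest mean. The 19938 genes were fitted in limma 3.58.1 (R 4.3.3) with 3 group means over 14 arrays, eBayes, two-sided tests and Benjamini-Hochberg adjustment over all genes. Python 3.11.15 and matplotlib 3.10.9 were used for the rest. On simulated data with 200 changed genes among 19938, changes of 0.5 log2 units were recovered in 73%, 74% and 76%, and of 1 log2 unit in 95%, 96% and 98%, in the order Mdr2-KO minus wild type, Mdr2-KO/IL6-KO minus wild type and Mdr2-KO/IL6-KO minus Mdr2-KO. The changed genes were drawn from all genes tested, with 1 SD per gene for every group. Clock genes had SDs above the median gene, some unequal between groups, so recovery for them was not measured. Alternatives were quantile normalization, median centring, no genes of low mean, averaged probes per gene, every probe tested, trended robust eBayes, array weights, only the groups compared, and each array left out in turn.

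All clock members are named. Of each list, up to 4 genes with the smallest adjusted p per comparison were eligible, and other named list genes (Tef, Ciart, Usp2, Nfil3, Mt2, and Csnk1e in Mdr2-KO) were added for their values or likeness. Genes alike are the 5 highest and lowest by r after subtracting group means, members counted beside them. Members and lists were chosen with earlier results of these data known. The labels name no batch or scan date.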

Additional observations from a re-analysis of the deposited data

Results flagged for a closer look

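Clock in Mdr2-KO array 5 read 8.45 and stood apart below the other 4 arrays of its group. Nr1d2 in Mdr2-KO/IL6-KO array 6 read 9.93 and stood apart above the other 5. These were the 2 gaps past Dixon's 95% critical value among 18 combinations of gene and knockout group, and chance gives about 1 in 20.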

How the results depend on the processing

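With each array left out in turn, clock genes called ranged from 2 (wild-type array 1 or 3 out) to 6 (Mdr2-KO array 5 out) for Mdr2-KO minus wild type and from 0 to 4 for Mdr2-KO/IL6-KO minus wild type. Genes called among all tested ranged from 2140 (wild-type array 3 out) to 4507 for Mdr2-KO minus wild type and from 754 (Mdr2-KO array 1 out) to 2164 between the knockouts. The latter count was 932 without Mdr2-KO array 3, 999 without array 4, 1055 without Mdr2-KO/IL6-KO array 4 and 1045 without array 5. For Mdr2-KO/IL6-KO minus wild type, 0 clock genes were called by limma over all probes and 1 with trended robust eBayes, where 5 of 9 have an unadjusted p under 0.05 in the fit reported. All probes gave 2944 calls among 35557 probes between the knockouts, beside 1746 among 19938 genes in the fit reported. Median centring turned the split of higher to lower calls from 1388 and 1062 to 1006 and 1573 for Mdr2-KO/IL6-KO minus wild type, and from 1005 and 741 to 424 and 1056 between the knockouts.

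Signs turned only for differences that were not called. Array weights gave 0.030 for Per1 in Mdr2-KO minus wild type and 0.017 for Arntl between the knockouts, and median centring gave -0.046 for Nr1d1 there. With single arrays out, Mdr2-KO minus wild type ranged from -0.39 to 0.10 for Per1 and from -0.42 to 0.17 for Nr1d1. Mdr2-KO/IL6-KO minus wild type ranged from -0.40 to 0.015 for Per1, from -0.033 to 0.16 for Cry1 and from -0.42 to 0.18 for Nr1d1. Between the knockouts the range was -0.37 to 0.069 for Arntl, -0.30 to 0.19 for Per1, -0.060 to 0.23 for Per2, -0.072 to 0.090 for Nr1d1, -0.041 to 0.10 for Nr1d2 and -0.084 to 0.45 for Dbp. The correlation with Arntl turned to 0.52 for Per1 and 0.35 for Cry1 without the 2 farthest arrays, and to 0.56 for Cry1 over all arrays after subtracting group means. The cause of these changes was not tested. No paired analysis was made because the labels give no pairing of arrays between groups. Signal near background limits Il6.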
